A study of Mus musculus with 8 samples.

Results

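Lymphoid tissue inducer (LTi) cells of the small intestine lamina propria (LP) were compared with LTi cells of Peyer's patches (PP) in control mice, gene by gene. The comparison took the 2 control LP libraries against the 2 control PP libraries, and its members were all genes that reached 1 RPKM (reads per kilobase of transcript, scaled to the reads of the library) in at least 2 of these 4 libraries. These were 8419 of the 27179 genes in the table. The series held 8 libraries in 4 groups of 2, from PP and LP of Tcf7+/+ mice (the controls) and of mice with floxed Tcf7 alleles (Tcf7fl/fl) and a Cre transgene, all C57BL/6. In the second genotype, the deletion of Tcf7 is meant for cells in which the Cre is active or that descend from such cells. Sorting selected live cells that carried CD127 and CCR6 but no lineage marker, KLRG1, NK1.1 or NKp46. Total RNA was turned into libraries by Smart-seq2, which copies and amplifies polyadenylated RNA from small cell numbers. The sources used here give neither the ages nor the sexes of the mice, nor whether the 2 libraries of a group came from separate animals, so the p-values measure only the spread between these libraries.

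LTi cells are group 3 innate lymphoid cells. They start lymphoid organs by showing lymphotoxin to stromal cells, which answer with adhesion molecules and chemokines. Peyer's patches are organised lymphoid follicles in the gut wall, rich in B cells, whereas the lamina propria is the loose tissue under the epithelium, where the same cell type is known as a source of IL-22 and IL-17 and stands close to plasma cells that make IgA.

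The 4 control libraries were of like depth but differed in how well replicates matched. The value of 1 read put the depths of all 8 libraries within 1.15-fold of each other. In control PP 6411 and 6365 genes reached 1 RPKM, and in control LP 8192 and 8433. Across the genes kept, the correlation of log2(RPKM + 1) between replicates was 0.519 in PP and 0.738 in LP, against 0.463 to 0.488 between a PP and an LP library (genes are not independent replicates). In PP, 2270 genes (27%) stood at 5 RPKM or more in one replicate and under 0.5 in the other, against 882 (10.5%) in LP. Of the genes kept, 1059 passed through LP alone, with both PP libraries under 1 RPKM, and 193 through PP alone. For these genes the filter fixed the direction of the difference, so a call among them is a description only. Xist, which female cells transcribe from the inactive X chromosome, stood at 9.6 and 9.22 RPKM in PP and 0.0712 and 0.0784 in LP, and the Y-linked Ddx3y at 0.779 and 0.223 RPKM in PP and 58.9 and 71.3 in LP. Neither passed the test, but the tissue effect and a difference in sex, or in how the tissues were prepared, cannot be told apart here.

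In the limma fit, 331 genes passed (3.93% of the genes tested), 211 of them higher in LP (2.51%) and 120 lower (1.43%). The threshold was an adjusted p of 0.05, corrected by Benjamini-Hochberg across the 8419 genes. The genes higher in LP included cytokines, immediate early genes and regulators of NF-κB, among them Il22, Il17f, Crem, Atf3, Nr4a1, Gem and Tnfaip3. Those lower in LP included Ltb, Thy1, Cd7 and the actin regulator Pfn1. All 331 called genes had groups that did not overlap. Of all 8419 genes, 24.9% were higher in LP without overlap and 24.8% were lower in LP without overlap. The median log2 difference over all genes was 0.01 as deposited, -0.26 after median-of-ratios rescaling between libraries and 0.16 after rescaling to a total without immunoglobulin and mitochondrial genes, so each change below is relative to that choice. Median-of-ratios rescaling gave 198 higher and 202 lower. The count rested on several libraries: 54 genes were called without LP replicate 1, 104 without LP replicate 2, and 194 and 163 without PP replicate 1 or 2 of the other genotype, which enter through the shared estimate of spread. Calls were also lost without either control PP library, those of Ltb, Thy1 and Nfkbie among them. The paragraphs below mostly give the fits without an LP library only. Where a fit leaves a group with 1 library, that library is taken to vary like the others. With only the 4 control libraries in the fit, 15 genes were called, 13 of them among the 331. In bulk RNA, a change in the number of cells of one kind and a change in RNA per cell cannot be told apart.

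**Figure D1:**
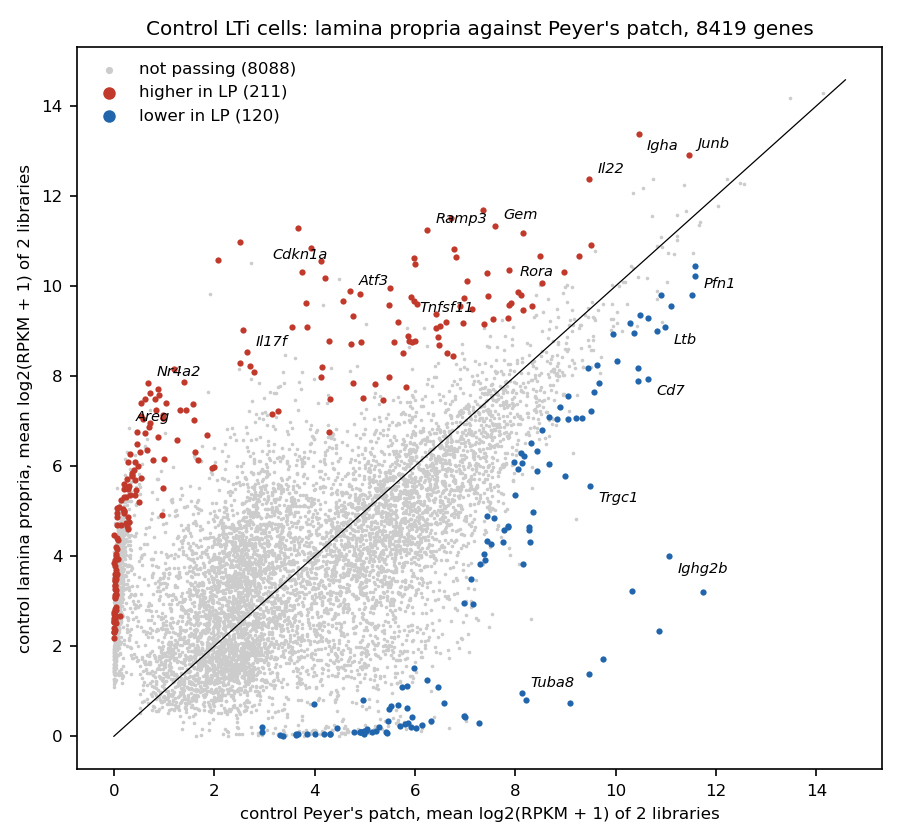
Mean log2(RPKM + 1) of the 2 control Peyer's patch libraries (x axis) and the 2 control lamina propria libraries (y axis) for the 8419 genes kept. The 211 genes higher in LP (red) lie above the line of equal level and the 120 lower in LP (blue) lie below it, and many called genes sit along an axis, near 0 in one tissue.

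The labelled cell type was checked first. Transcripts of the gate and of the lineage were present in every control library: Il7r, which encodes CD127, stood at 454 and 301 RPKM in PP and 385 and 369 in LP, and Ccr6 at 597 and 319.6 RPKM in PP and 325 and 225 in LP. Neither passed the test, with log2 differences of 0.03 and -0.69. Kit, a receptor of innate lymphoid cells, stood at 161 and 212 RPKM in PP and 221 and 229 in LP, and Id2, the factor that innate lymphoid cells need, at 1918 and 1691 RPKM in PP and 769 and 901 in LP. Id2 missed the threshold (-1.11 ± 0.237, adjusted p = 0.0514), and passed it under 5 of 21 other settings, among them median-of-ratios rescaling. Of the transcripts that the gate excludes, Ncr1, which encodes NKp46, was listed at 0 in all 4 libraries. Klrg1 stood at 0 and 0.0166 RPKM in PP and 10.7 and 0.0188 in LP, and Klrb1c, which encodes NK1.1, at 32.8 and 0.12 RPKM in PP and 0.178 and 0.136 in LP, so each was present in 1 library. Cd4, which marks a subset of LTi cells, stood at 169.6 and 239 RPKM in PP and 67.1 and 48.7 in LP and did not pass (-1.80 ± 0.514, adjusted p = 0.104).

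Among the effector cytokines, the calls were all on the side of LP. Of 24 listed genes, 11 were kept, 1 of them (Areg) through LP alone, so the filter fixed its direction. Of the 11, 5 passed, Areg included, all higher in LP (45.5%, against 2.51% of all genes). The median log2 difference of the 11 was 2.54 against 0.01 over all genes. Without LP replicate 1 or 2, or with only the 4 control libraries fitted, 1, 2 and 0 of them passed, with medians of 2.55, 2.45 and 2.54. Il22, the cytokine that acts on epithelial cells to induce antimicrobial proteins, is encoded at chr10:118204584-118210047 (GRCm38). It stood at 865 and 585 RPKM in PP and 5254 and 5318 in LP. Both LP libraries lay above both PP libraries, and the log2 fold change was 2.89 ± 0.229 (SE), with a limma adjusted p of 0.00326. Values in brackets below are likewise log2 fold changes, LP minus PP, ± SE on the log2(RPKM + 1) scale, which understates the change of low genes, and the limma adjusted p. Il17f, which encodes a cytokine that recruits neutrophils, stood at 9.19 and 2.92 RPKM in PP and 455 and 296 in LP (5.86 ± 0.547, adjusted p = 0.00451). Its neighbour Il17a stood at 0.81 and 1.08 RPKM in PP and 15.2 and 55.6 in LP (3.97 ± 0.762, adjusted p = 0.0367), a far lower level than Il22 in the same libraries. Its LP libraries stood apart from each other, and its call was lost in 14 of 21 other settings, among them without LP replicate 1 (adjusted p = 0.0633).

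Areg encodes amphiregulin, a growth factor for epithelial repair, and went from 0.513 and 0.544 RPKM in PP to 122 and 90.9 in LP (6.12 ± 0.809, adjusted p = 0.013). Furin, a protease that matures growth factors and cytokines, stood at 38.7 and 23.8 RPKM in PP and 181 and 182 in LP (2.54 ± 0.467, adjusted p = 0.0325). Among the members that did not pass, Csf2, the growth factor for myeloid cells, stood at 21.5 and 7.76 RPKM in PP and 33.6 and 24.5 in LP, and Il16 at 30.7 and 67.3 RPKM in PP and 8.08 and 13.1 in LP. Il10, Il13, Il4, Il5 and Il9 were listed at 0 in all 4 libraries, and Ifng reached at most 0.056 RPKM. The call of Il22 was kept without either LP library, while that of Il17f was lost without LP replicate 1 (adjusted p = 0.0544) and that of Areg without either of them (0.106 and 0.085).

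**Figure D2:**
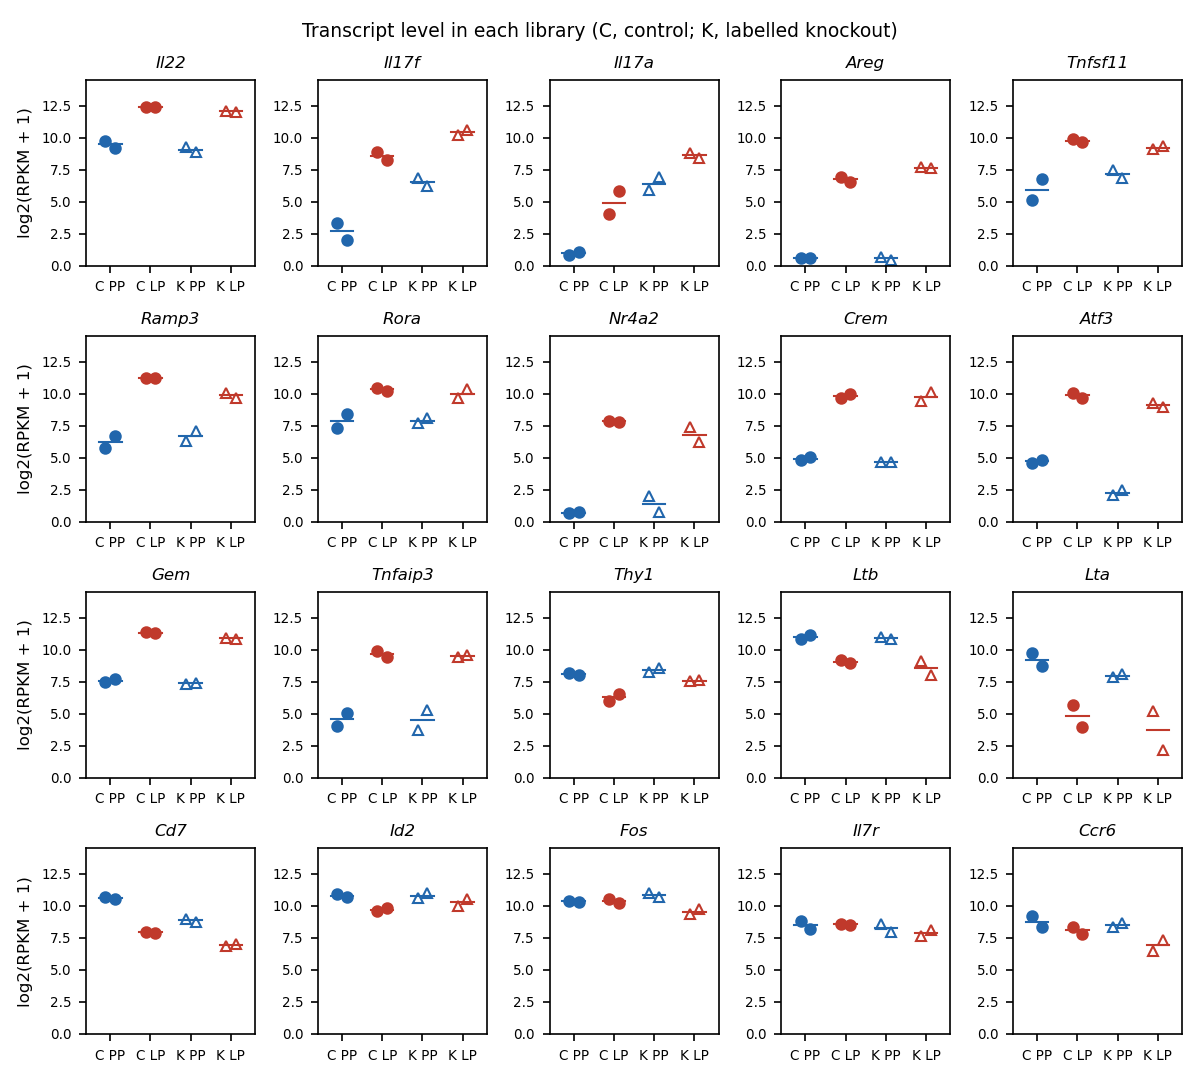
Level of 20 transcripts as log2(RPKM + 1) in each of the 8 libraries: points are libraries, lines are group means, blue is Peyer's patch, red is lamina propria, filled circles are controls (C) and open triangles the libraries labelled knockout (K). Il22, Il17f, Areg, Tnfsf11, Ramp3, Rora, Nr4a2, Crem, Atf3, Gem and Tnfaip3 are higher in both control LP libraries than in both control PP libraries, Thy1, Ltb and Cd7 are lower, and Il7r, Ccr6 and Fos did not pass the test.

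Immediate early genes, which cells switch on within minutes of a stimulus without new protein, held 19 calls, the most of any list but that of immunoglobulin segments (21). Of 47 listed genes in the AP-1 and immediate early list, 41 were kept (5 of them through LP alone), 18 were higher in LP (43.9%, against 2.51% of all genes), 1 was lower and 22 did not pass. The median log2 difference was 2.22, and stayed between 1.89 and 2.39 under both rescalings. Without LP replicate 1 or 2, or with only the 4 control libraries fitted, 2, 5 and 3 members passed, all higher in LP, while the median was 2.42, 2.44 and 2.22. Crem encodes a repressor and activator of cAMP-responsive genes and stood at 26.9 and 31.5 RPKM in PP and 822 and 992 in LP (4.91 ± 0.359, adjusted p = 0.00326). Atf3, a stress-induced bZIP factor, stood at 22.5 and 27.9 RPKM in PP and 1083 and 825 in LP (5.18 ± 0.411, adjusted p = 0.00326). The 3 orphan nuclear receptors of the NR4A family, induced by receptor signalling, all passed. Nr4a2 is 1 of the 5 members kept through LP alone, so the filter fixed its direction and its call is a description only. Nr4a1 stood at 59.5 and 66.3 RPKM in PP and 1322 and 1551 in LP (4.49 ± 0.511, adjusted p = 0.00873), Nr4a2 at 0.559 and 0.652 RPKM in PP and 236 and 224 in LP (7.17 ± 0.864, adjusted p = 0.00982) and Nr4a3 at 1.32 and 0.37 RPKM in PP and 144 and 159 in LP (6.42 ± 1.07, adjusted p = 0.0247). Junb, an AP-1 subunit and one of the most abundant transcripts of the comparison, stood at 2956 and 2695 RPKM in PP and 8075 and 7367 in LP, and its log2 fold change was the smallest of these (1.45 ± 0.146, adjusted p = 0.00559).

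The subunits of AP-1 gave unlike values. Fosb stood at 72.7 and 50.4 RPKM in PP and 433 and 432 in LP (2.82 ± 0.347, adjusted p = 0.0103) and Fosl2 at 3.2 and 2.14 RPKM in PP and 104 and 102 in LP (4.84 ± 0.733, adjusted p = 0.0185). Fos did not pass and stood at 1366 and 1244 RPKM in PP and 1467 and 1222 in LP, with a log2 difference of 0.04 ± 0.21. Jun, the classic partner of Fos, stood at 2004 and 1876 RPKM in PP and 580.0 and 597 in LP and did not pass either (-1.72 ± 0.499, adjusted p = 0.108). Batf3, an AP-1 family factor, was the member that was lower in LP, at 823 and 309 RPKM in PP and 51.9 and 56.6 in LP (-3.20 ± 0.527, adjusted p = 0.0243). Beside the transcription factors, Gadd45b, a stress sensor, stood at 41.6 and 91.4 RPKM in PP and 1507 and 1646 in LP (4.65 ± 0.451, adjusted p = 0.00514), and Btg2, which restrains proliferation, at 40 and 62 RPKM in PP and 554 and 628 in LP (3.54 ± 0.351, adjusted p = 0.00546). Gem, a small GTPase outside the list, had the smallest adjusted p of all these genes, with 175 and 209.7 RPKM in PP and 2644 and 2545 in LP (3.75 ± 0.197, adjusted p = 0.00174). The calls of Crem, Atf3, Gem and the autophagy receptor Sqstm1 (253 and 318 RPKM in PP and 2302 and 2295 in LP) were kept in all 21 other settings. Without LP replicate 1 the calls of Nr4a1, Nr4a2, Nr4a3, Junb, Fosb, Fosl2, Batf3, Gadd45b and Btg2 were lost, with adjusted p from 0.0536 to 0.159. Those of the Nr4a genes, Fosb, Fosl2 and Batf3 were lost without LP replicate 2 as well.

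The promoters of 5 of these genes are shown because the genes moved together and because immediate early genes include known targets of CREB, the factor that binds the cAMP response element. RefSeq promoters (GRCm38.p6) were matched for 15 of the 18 members that were higher in LP. In the 250 bases before the start, the core of the cAMP response element, TGACG on either strand, was found in 11 of these 15 (73.3%). It was found in 19.8% of all 27025 genes with a promoter in the table, and in 34.4% of the 6326 kept genes that were matched. Among all kept members of the list it was found in 18 of 32 matched (56.2%), and among all genes higher in LP in 78 of 154 (50.6%). The complete element, TGACGTCA, was found in 2 of the 15 (13.3%) and in 4 of the 32 matched kept members (12.5%). It was found in 3.46% of matched kept genes and in 1.77% of all genes. The AP-1 element TGANTCA was found in 1 of the 15 (6.67%), in 5.3% of matched kept genes and in 7.82% of all genes. The 5 promoters printed below are among the 11 with the core. Since only 6326 of the 8419 kept genes were matched, these shares say nothing of the genes not matched, and their differences were not tested. The 27025 genes include many that were not kept, so shares over them are no like background for called genes. A match of letters is no evidence of binding. The 120 bases before each start are printed 5′ to 3′ along the gene's strand, with TGACG or its reverse complement in capitals:
Nr4a1, chr15:101266726-101266845, plus strand: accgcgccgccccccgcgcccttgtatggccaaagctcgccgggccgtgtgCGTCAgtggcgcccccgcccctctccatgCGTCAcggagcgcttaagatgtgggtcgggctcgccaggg
Nr4a2, chr2:57124004-57124123, minus strand: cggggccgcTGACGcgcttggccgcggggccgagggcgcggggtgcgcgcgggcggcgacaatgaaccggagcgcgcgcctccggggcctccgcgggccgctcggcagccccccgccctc
Fosb, chr7:19310046-19310165, minus strand: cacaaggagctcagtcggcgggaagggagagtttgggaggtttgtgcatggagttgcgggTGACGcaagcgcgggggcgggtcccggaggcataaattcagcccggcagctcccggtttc
Atf3, chr1:191183334-191183453, minus strand: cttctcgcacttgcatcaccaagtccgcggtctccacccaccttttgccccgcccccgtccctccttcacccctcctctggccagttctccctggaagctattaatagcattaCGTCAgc
Junb, chr8:84978749-84978868, minus strand: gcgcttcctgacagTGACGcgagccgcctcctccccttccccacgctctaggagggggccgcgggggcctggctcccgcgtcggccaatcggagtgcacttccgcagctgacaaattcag
Nr4a1 holds the core at 2 places in this window and each of the others at 1.

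NF-κB is held inactive by inhibitors that it also induces. Of 29 listed genes of the NF-κB pathway, 27 were kept, 3 were higher in LP (11.1%, against 2.51% of all genes) and none was lower in the limma fit. Of the 27 members, 22 had a positive difference (81.5%, against 50.3% of all genes), with a median of 1.56 (1.22 to 1.73 under both rescalings). The 3 that passed encode feedback regulators. Tnfaip3, the ubiquitin-editing enzyme A20, stood at 15.7 and 32.4 RPKM in PP and 948 and 684 in LP (5.09 ± 0.594, adjusted p = 0.00903), Nfkbiz, an inhibitor-like co-activator, at 29 and 29.7 RPKM in PP and 417 and 448 in LP (3.84 ± 0.452, adjusted p = 0.00925), and Nfkbie, an inhibitor of NF-κB, at 101 and 70.2 RPKM in PP and 561 and 511 in LP (2.66 ± 0.47, adjusted p = 0.03). Nfkbia, the best known inhibitor, stood at 869 and 681 RPKM in PP and 1814 and 1713 in LP and missed the threshold (1.20 ± 0.258, adjusted p = 0.0535). The 3 calls were lost without LP replicate 1 (adjusted p from 0.0721 to 0.174) and without LP replicate 2.

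A sequence of the NF-κB type, GGG and TTCC with any 3 bases between them, on either strand, was found in both members of these 3 that had a promoter in the table. Among all kept genes of the pathway it was found in 10 of the 21 matched (47.6%), and in 5.31% of all genes with a promoter. It was found in 6.2% of matched kept genes, 13% of those higher in LP and 10% of those lower. The AP-1 element TGANTCA was found in both members as well. The same 120 bases are shown for Tnfaip3 and Nfkbie with the NF-κB match in capitals, for Tnfaip3 at the farther upstream of its 2 starts:
Tnfaip3, chr10:19015411-19015530, minus strand: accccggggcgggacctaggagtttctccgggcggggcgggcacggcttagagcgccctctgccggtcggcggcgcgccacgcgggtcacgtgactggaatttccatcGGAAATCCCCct
Nfkbie, chr17:45555580-45555699, plus strand: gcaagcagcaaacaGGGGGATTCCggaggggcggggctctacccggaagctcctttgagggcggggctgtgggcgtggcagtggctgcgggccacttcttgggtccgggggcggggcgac
The match lies at the end of the window next to the start in Tnfaip3 and at its far end in Nfkbie.

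Of 24 chemokine ligands, 7 were kept and 3 were higher in LP (42.9%, against 2.51% of all genes). These 3 are among the 5 kept through LP alone, with both PP libraries under 1 RPKM, so the filter fixed their direction and the count is a description only. Cxcl10, which attracts cells with CXCR3, stood at 0.769 and 0.756 RPKM in PP and 243 and 129.7 in LP (6.66 ± 0.815, adjusted p = 0.0102). The neutrophil attractants Cxcl2 and Cxcl1 stood at 0.971 and 0.956 RPKM in PP and 123 and 159.6 in LP (6.17 ± 0.715, adjusted p = 0.00903) and at 0.242 and 0.33 RPKM in PP and 60.9 and 52.5 in LP (5.49 ± 1.06, adjusted p = 0.038). Epithelial and myeloid cells express these genes too. The summed epithelial markers were at 808 and 475 RPKM in PP and 659 and 2080 in LP. Of the 23 kept, 20 had a positive difference (87.0%, against 50.3% of all genes), and 12 were kept through LP alone. Of 31 myeloid and mast cell markers 4 were kept, 3 with a positive difference (75.0%, against 50.3% of all genes) and 1 with a negative one. Their median log2 difference was 1.42. The list summed to 3621 and 2700 RPKM in PP and 1427 and 1504 in LP. Most of that sum was Fcer1g, which innate lymphocytes also express, with 3507 and 2651 RPKM in PP and 1351 and 1422 in LP. Csf1r, C1qa, S100a8 and Adgre1 were at 0.0139 RPKM or less. The part of these cells in the result was not tested. The 3 calls were lost without either LP library.

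Ligands of the tumour necrosis factor family split by tissue. Lymphotoxin is the signal by which LTi cells instruct stroma, and Ltb, its membrane-bound subunit, was lower in LP, with 1839 and 2248 RPKM in PP and 578 and 505 in LP (-1.91 ± 0.341, adjusted p = 0.0303). Lta, the other subunit, stood at 843 and 419 RPKM in PP and 51.3 and 14.6 in LP. Its groups did not overlap, but it missed the threshold (-4.38 ± 1.04, adjusted p = 0.0673) and passed in 4 of 21 other settings. Tnfsf11, which encodes RANKL, the ligand that induces M cells and bone-resorbing cells, went the other way, from 32.9 and 108 RPKM in PP to 931 and 801 in LP (3.83 ± 0.542, adjusted p = 0.0155). Of 17 listed ligands 7 were kept, 1 was higher (14.3%, against 2.51% of all genes) and 1 lower (14.3%, against 1.43%). The median difference was 0.08, which turned to -0.23 under median-of-ratios rescaling. Neither Ltb (adjusted p = 0.158) nor Tnfsf11 (0.117) passed without LP replicate 1, and the same held without LP replicate 2.

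Of 34 genes of LTi and ILC3 identity, 32 were kept, 3 were higher in LP (9.38%, against 2.51% of all genes), 2 were lower (6.25%, against 1.43%) and 27 did not pass. Their median difference of 0.16 turned to -0.17 under median-of-ratios rescaling. Thy1, a surface glycoprotein, was lower in LP, with 297 and 256 RPKM in PP and 63.9 and 92.4 in LP (-1.83 ± 0.326, adjusted p = 0.0303). Rora, the gene of the nuclear receptor RORα, was higher, with 158 and 345 RPKM in PP and 1422 and 1216 in LP (2.49 ± 0.419, adjusted p = 0.0256). Nfil3, which innate lymphoid cells need to develop, stood at 73 and 45.5 RPKM in PP and 377 and 510.1 in LP (2.91 ± 0.519, adjusted p = 0.0303), and Arg1, an arginine-degrading enzyme of ILC precursors and LTi cells, at 376 and 278 RPKM in PP and 760.4 and 749 in LP (1.22 ± 0.229, adjusted p = 0.035). Tcf7, the gene of TCF-1, stood at 243 and 85.4 RPKM in PP and 229 and 246 in LP and did not pass, with PP replicate 1 near the LP values and replicate 2 below them. Ahr, the aryl hydrocarbon receptor, stood at 45.7 and 78.3 RPKM in PP and 5.25 and 18 in LP and did not pass either (-2.48 ± 0.849, adjusted p = 0.15). The calls of Thy1, Rora, Nfil3 and Arg1 were lost without LP replicate 1, with adjusted p from 0.138 to 0.174, and without LP replicate 2.

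Receptors for cytokines and chemokines changed in few members. Of 42 cytokine receptors, 29 were kept (4 through LP alone) and 2 were higher in LP (6.90%, against 2.51% of all genes). Il4ra stood at 29.2 and 23.5 RPKM in PP and 280.2 and 187 in LP (3.08 ± 0.495, adjusted p = 0.0222). Il2rb, shared by the receptors for IL-2 and IL-15, stood at 350.5 and 383 RPKM in PP and 1171 and 980.4 in LP (1.54 ± 0.257, adjusted p = 0.0247). Of 33 chemokine and homing receptors, 22 were kept (4 through LP alone). Of these 22, 4 were higher (18.2%, against 2.51% of all genes) and 1 was lower (4.55%, against 1.43%). Gpr183, the oxysterol receptor that guides LTi cells to lymphoid follicles, stood at 161 and 169 RPKM in PP and 584 and 556 in LP (1.78 ± 0.265, adjusted p = 0.0169), and Gpr132, a lipid receptor, at 108 and 68.9 RPKM in PP and 512 and 426 in LP (2.42 ± 0.397, adjusted p = 0.0242). Cxcr3 and Gpr34 passed from near 0 in PP to 42.5 and 25.8 and 5.93 and 5.19 RPKM in LP. Both were kept through LP alone, so the filter fixed their direction. Ffar2, a receptor for short-chain fatty acids, was the lower one, with 163 and 169 RPKM in PP and 18.5 and 12.9 in LP (-3.34 ± 0.676, adjusted p = 0.0441). All 7 calls were lost without LP replicate 1, and without LP replicate 2 that of Gpr34 was kept.

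Cxcr5, Cxcr6, Ccr7 and Ccr9 did not pass. Cxcr5, the receptor for the follicle chemokine CXCL13, stood at 324 and 192 RPKM in PP and 188 and 183 in LP, and Cxcr6 at 645 and 746 RPKM in PP and 518 and 383 in LP. Ccr7, the receptor for lymph node entry, stood at 42 and 67.1 RPKM in PP and 136 and 158 in LP, without overlap but with an adjusted p of 0.156, and Ccr9, the small intestine homing receptor, at 0.0176 and 0.0616 RPKM in PP and 12 and 2.06 in LP. Itgae was not kept, with 0 and 0.00991 RPKM in PP and 0 and 5.31 in LP.

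Ramp3 showed one of the firmest differences of the comparison. It encodes an accessory protein of the receptors for adrenomedullin and calcitonin gene-related peptide, and stood at 54.4 and 103 RPKM in PP and 2441 and 2432 in LP (5.01 ± 0.4, adjusted p = 0.00326), and its call was kept in 20 of 21 other settings. Its family member Ramp1 stood at 127 and 179.5 RPKM in PP and 34.3 and 63.3 in LP and did not pass, and Calcrl, the receptor that both proteins join, stood at 0.00548 and 0.00482 RPKM in PP and 1.59 and 0.108 in LP. Of 22 neuropeptide and neurotransmitter receptors 6 were kept. Ramp3 was the only one of them that passed in the limma fit (16.7%, against 2.51% of all genes higher in LP). Of all genes, 1848 had an unadjusted p under 0.05 in that fit.

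Among genes of the stress response, Hspa5, the main chaperone of the endoplasmic reticulum, stood at 398 and 326 RPKM in PP and 1708 and 1556 in LP (2.18 ± 0.291, adjusted p = 0.0133) and Herpud1, which takes part in the degradation of misfolded proteins there, at 162 and 187 RPKM in PP and 862 and 895 in LP (2.33 ± 0.321, adjusted p = 0.0147). These 2 of 27 kept heat shock and ER stress genes were higher in LP (7.41%, against 2.51% of all genes) and none was lower, with 1.40 as the median difference. Of the 27, 18 had a positive difference (66.7%, against 50.3% of all genes) and 9 a negative one. Hspa1a, Hspa8 and Dnajb1, which encode heat shock chaperones, were among the negative ones and did not pass. Hspa1a stood at 36.3 and 39.8 RPKM in PP and 10.7 and 17.8 in LP (log2 difference -1.40). Hspa8 stood at 172 and 151 RPKM in PP and 145 and 122 in LP (-0.28), and Dnajb1 at 127 and 129.7 RPKM in PP and 59.1 and 90.4 in LP (-0.81). Cdkn1a, the cell cycle inhibitor p21, stood at 5.44 and 27 RPKM in PP and 1224 and 1332 in LP (6.57 ± 0.625, adjusted p = 0.00491), Dgat1, which makes triglycerides, at 82.5 and 320.3 RPKM in PP and 3332 and 3207 in LP (4.32 ± 0.575, adjusted p = 0.0133), and Vps37b, of the ESCRT sorting machinery, at 137 and 79.6 RPKM in PP and 3058 and 2789 in LP (4.79 ± 0.433, adjusted p = 0.0042). These 5 calls were lost without LP replicate 1, with adjusted p from 0.0546 to 0.103. No label describes how the tissues were handled before sorting, and the part of handling in these differences was not tested.

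Apart from immunoglobulin segments, the largest differences among genes higher in LP were in genes near 0 in PP. Those named in this paragraph had both PP libraries under 1 RPKM, as had Nr4a2 and Areg above. They were kept through LP alone, so the filter fixed their direction and their calls are a description only. Orai1, the pore of the store-operated calcium channel, stood at 0.74 and 0.541 RPKM in PP and 189 and 203 in LP (6.91 ± 0.62, adjusted p = 0.0042), Mvk, of the mevalonate pathway, at 0.386 and 0.529 RPKM in PP and 138 and 206 in LP (6.86 ± 0.865, adjusted p = 0.0109), and Hmces, a protein that guards abasic DNA, at 0.856 and 0.799 RPKM in PP and 223 and 195 in LP (6.84 ± 0.565, adjusted p = 0.00339). Rnf125, an E3 ubiquitin ligase, stood at 0.596 and 0.472 RPKM in PP and 169.9 and 185 in LP, Azin1, which spares ornithine decarboxylase, at 0.872 and 0.851 RPKM in PP and 174 and 207 in LP, and Plaur, the urokinase receptor, at 0.478 and 0.419 RPKM in PP and 171 and 111 in LP. Of the 211 genes higher in LP, 111 had both PP libraries under 2 RPKM. In 39 of these 111 both PP libraries of the other genotype held 5 RPKM or more, Orai1 (32.5 and 57.2), Hmces (27 and 51.5) and Rnf125 (14.9 and 12.5) among them. For such genes the control PP libraries stood apart from the PP libraries labelled knockout. Without LP replicate 1 the calls of Orai1 and Hmces were kept, and those of Mvk, Rnf125, Azin1 and Plaur were lost.

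Mir155 was also low in PP, but not kept through LP alone, with 1.18 and 1.39 RPKM in PP and 246 and 329.6 in LP (6.97 ± 0.917, adjusted p = 0.013). It is the gene of the microRNA miR-155, which lymphocytes make on activation, and lies inside the long non-coding RNA Mir155hg. The library method copies polyadenylated RNA, so the value reflects RNA of the host transcript and not the mature miRNA. The mature arms in RefSeq (GRCm38.p6, plus strand) are shown with the seed, bases 2 to 8, in capitals, since the seed sets which messages a miRNA pairs with:
mmu-miR-155-5p, chr16:84714143-84714165: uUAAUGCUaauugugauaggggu
mmu-miR-155-3p, chr16:84714182-84714202: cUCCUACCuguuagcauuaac
The call of Mir155 was lost without either LP library (adjusted p = 0.0965 without replicate 1).

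The 120 genes lower in LP had a median log2 fold change of -3.62. Cd7, a surface protein of T and innate lymphoid cells, stood at 1688 and 1526 RPKM in PP and 252 and 238 in LP (-2.71 ± 0.231, adjusted p = 0.00339) and kept its call in 20 of 21 other settings. Pfn1, which delivers actin monomers, stood at 3107 and 3048 RPKM in PP and 1154 and 1245 in LP (-1.36 ± 0.137, adjusted p = 0.00559), and Sh3bgrl3, a small thioredoxin-like protein, at 2217 and 2197 RPKM in PP and 740.0 and 765 in LP (-1.55 ± 0.153, adjusted p = 0.00546). Fcer1g, the signalling chain of Fc receptors that innate lymphocytes also express, stood at 3507 and 2651 RPKM in PP and 1351 and 1422 in LP (-1.14 ± 0.179, adjusted p = 0.0207). Tmem176a and Tmem176b, a pair of ion channel genes, stood at 3056 and 2848 RPKM in PP and 841 and 929 in LP (-1.74 ± 0.202, adjusted p = 0.00903) and at 1596 and 1596 RPKM in PP and 581 and 678 in LP (-1.35 ± 0.255, adjusted p = 0.0359). Serpine2, a protease inhibitor, stood at 284 and 335 RPKM in PP and 31.2 and 18.3 in LP (-3.63 ± 0.37, adjusted p = 0.00559). Without LP replicate 1 the calls of Cd7 and Serpine2 were kept, and those of Pfn1, Sh3bgrl3, Fcer1g and both Tmem176 genes were lost.

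Adhesion genes were mixed: of 30 listed, 20 were kept, 1 was higher and 2 were lower. The tetraspanin gene Cd81 stood at 866 and 656 RPKM in PP and 198 and 198 in LP (-1.92 ± 0.234, adjusted p = 0.00992) and Selplg, the ligand of P-selectin, at 301 and 261 RPKM in PP and 82.4 and 53.7 in LP (-2.06 ± 0.423, adjusted p = 0.0465). Itga6, an integrin subunit, was higher in LP, with 0.00617 and 0.0108 RPKM in PP and 5.43 and 4.65 in LP. It was kept through LP alone, so the filter fixed its direction. Tuba8 and Tubg1, tubulin genes, had the largest drops outside immunoglobulin and T cell receptor genes, from 291 and 271 RPKM to 0.835 and 1.07 and from 130.2 and 123 to 0.291 and 0.396. Pgp, Pagr1a, Mto1, Thap3, Bola1, Fez1 and the small nucleolar RNA gene Snord96a were lower too, all under 1 RPKM in both LP libraries and between 40.4 and 165 RPKM in PP. These and Tubg1 were kept through PP alone, so the filter fixed their direction. Snord96a stood at 93.3 and 96.5 RPKM in control PP but was listed at 0 in both PP libraries labelled knockout. The library method copies polyadenylated RNA, and which RNA gave the value of Snord96a was not tested. Of the 120 genes lower in LP, 50 had both LP libraries under 2 RPKM. Every call named here was lost without LP replicate 1, and without LP replicate 2 only those of Itga6 and Pgp were kept.

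The respiratory chain had few calls. Of 71 nuclear-encoded subunits kept, 3 were lower in LP (4.23%, against 1.43% of all genes), none was higher, and 59 (83.1%) had a negative difference, against 49.7% of all genes. The median was -0.70, between -1.01 and -0.56 under both rescalings. Ndufa3 of complex I stood at 1101 and 981 RPKM in PP and 279 and 375 in LP (-1.68 ± 0.321, adjusted p = 0.0366), and the complex IV subunits Cox8a and Cox6b1 at 1255 and 1227 RPKM in PP and 535 and 624 in LP (-1.10 ± 0.197, adjusted p = 0.0303) and at 973 and 1008 RPKM in PP and 552 and 435 in LP (-1.01 ± 0.205, adjusted p = 0.0444). These calls were lost under 11 to 13 of 21 other settings, leaving out either LP library included, and none was left under the rescaling without immunoglobulin and mitochondrial genes. The 15 mitochondrially encoded genes had no call in the limma fit (3 at an unadjusted p under 0.05) and a median of -0.20. Ribosomal protein genes had no call among 85 kept (6 at an unadjusted p under 0.05) and a median of -0.05, which turned to 0.12 under the rescaling without immunoglobulin and mitochondrial genes.

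**Figure D3:**
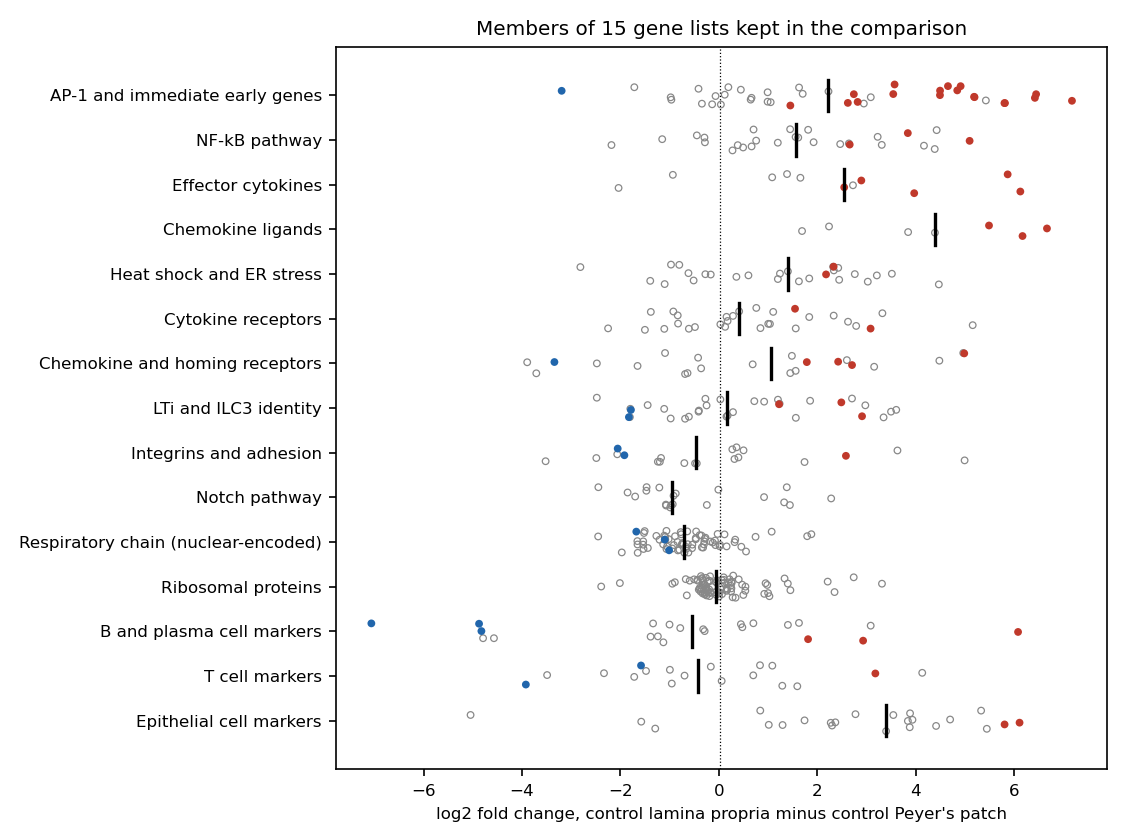
Log2 fold change, control LP minus control PP, of the kept members of 15 gene lists: each point is a gene, red passed and was higher in LP, blue passed and was lower, open grey did not pass, the black bar is the list's median and the dotted line the median of all genes. Immediate early genes and effector cytokines have medians of 2.22 and 2.54, and 59 of 71 respiratory chain genes lie below 0. The place of the chemokine ligands follows from the filter, since 5 of 7 were kept through LP alone.

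Transcripts of other cell types were present and moved with tissue. Immunoglobulin genes took 6.01% and 6.38% of summed RPKM in control PP and 11.9% and 17.1% in control LP. Igha, the constant region of IgA, stood at 1368 and 1438 RPKM in PP and 8545 and 13349 in LP (2.93 ± 0.214, adjusted p = 0.00326), and Ighg2b, of IgG2b, went from 1829 and 2498 RPKM in PP to 4.7 and 44 in LP (-7.06 ± 1.27, adjusted p = 0.0306). Iglc2, a lambda light chain constant gene, stood at 0.405 and 1.78 RPKM in PP and 140.3 and 124 in LP (6.08 ± 0.623, adjusted p = 0.00562). Of 22 kept B and plasma cell markers 3 were higher in LP (13.6%, against 2.51% of all genes) and 3 lower (13.6%, against 1.43%). The list summed to 17750 and 18800 RPKM in PP and 29400 and 44120 in LP. The 3 lower ones were Ighg2b, Cd22 (29.7 and 30.9 RPKM in PP and 0.0784 and 0.0592 in LP) and Spib (38.2 and 22.2 RPKM in PP and 0.0374 and 0.0916 in LP). Cd22 and Spib were kept through PP alone, so the filter fixed their direction. The B cell gene Pax5 was listed at 0 in all 4 libraries, while Ms4a1, another B cell gene, stood at 0.399 and 29.1 RPKM in PP and 0.0633 and 0.0497 in LP. Without LP replicate 1 the call of Igha was kept, and those of Ighg2b, Iglc2, Cd22 and Spib were lost. The part of antibody-secreting or B cells in the differences above was not tested.

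Of 18 kept T cell markers, 1 was higher in LP (5.56%, against 2.51% of all genes) and 2 were lower (11.1%, against 1.43%). The receptor constant genes Trgc1 and Trbc2, which innate lymphoid cells can transcribe without a functional receptor, were lower in LP, with 653 and 791 RPKM in PP and 39.2 and 55.1 in LP (-3.92 ± 0.528, adjusted p = 0.0135) and 451 and 497 RPKM in PP and 171 and 145 in LP (-1.58 ± 0.331, adjusted p = 0.049). Cd3e stood at 0.179 and 3.82 RPKM in PP and 14.1 and 0.195 in LP and Cd3g at 0.326 and 111 RPKM in PP and 14 and 0.274 in LP, and Cd8b1 at 0.0795 RPKM or less. The summed T cell markers were 2288 and 2471 RPKM in PP and 1687 and 1543 in LP. The calls of Trgc1 and Trbc2 were lost without either LP library.

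Epithelial transcripts were uneven between LP replicates. Of 38 markers, 23 were kept, 12 of them through LP alone, and 2 were higher in LP (8.70%, against 2.51% of all genes). Lgals2 stood at 0.867 and 1.06 RPKM in PP and 79.5 and 226 in LP, and Tff3, the goblet cell peptide, at 2.58 and 1.47 RPKM in PP and 54.7 and 493 in LP. The summed level was 808 and 475 RPKM in PP and 659 and 2080 in LP, so LP replicate 2 stood above the other 3 libraries. Spink4, another goblet cell gene, was at 0.265 and 285 RPKM in the LP replicates. Of the 23 kept, 20 had a positive difference (87.0%, against 50.3% of all genes), and 14 were higher in LP without overlap, as were 24.9% of all genes. The median was 3.40, a shift that the 12 kept through LP alone were bound to show in part. Lgals2 and Tff3 passed without LP replicate 1 (adjusted p = 0.0416 for each), but not without LP replicate 2 (0.055 and 0.0665), where 82 of all 331 calls were kept. The part of epithelial cells in the differences between tissues was not tested. Stromal genes were at or near 0 (Col1a1, Pdgfra, Cdh5 and Madcam1 were listed at 0 in all 4 libraries), and Tnfsf11, counted on that list too, made up most of its sum of 991 and 863 RPKM in LP.

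**Figure D4:**
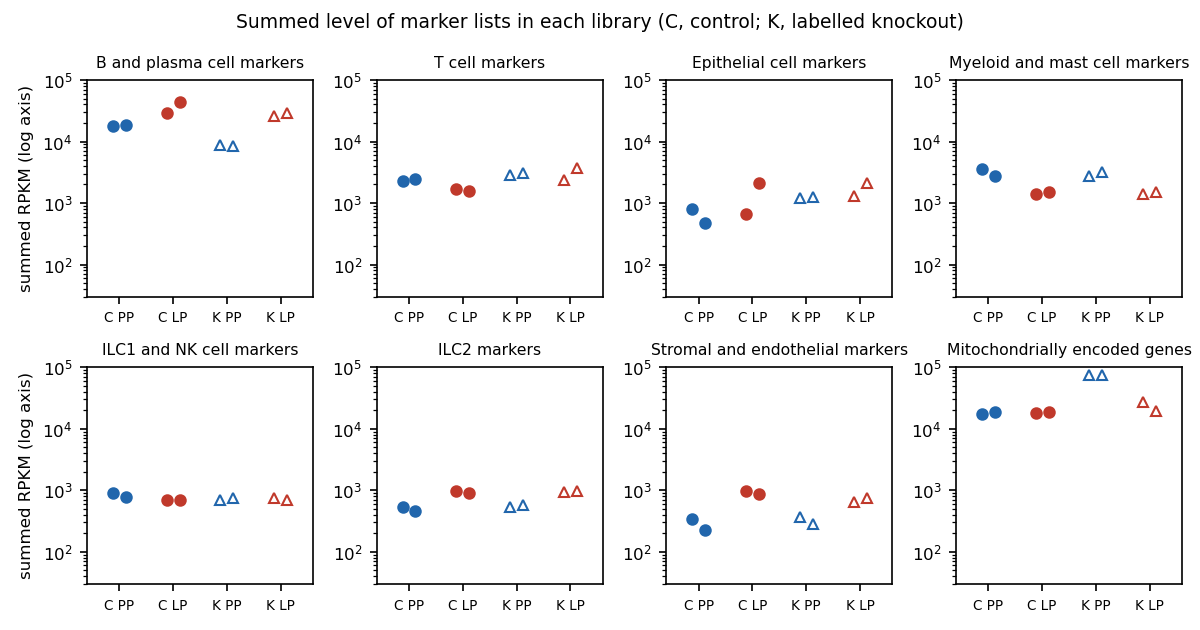
Summed RPKM (log axis) over 7 lists of marker genes and the mitochondrially encoded genes in each library, with blue for Peyer's patch, red for lamina propria, filled circles for controls (C) and open triangles for libraries labelled knockout (K). B and plasma cell markers are higher in both control LP libraries than in both control PP libraries, and epithelial markers reach 2080 RPKM in control LP replicate 2 alone among the control libraries.

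The same contrast was made in the libraries labelled knockout, to see which tissue differences were found there. Tcf7, the targeted gene, was not lower there: it stood at 356 and 337 RPKM in PP and 237 and 215 in LP of these libraries, within or above the range of the control libraries, so the genotype rests on the label alone. A gene-level value does not separate a deleted part of a gene from the rest. There 171 genes passed (2.03%), 94 higher in LP (1.12%) and 77 lower (0.915%). Of the 211 genes higher in control LP, 68 (32.2%) passed the same way and 179 had the same sign, and of the 120 lower, 29 (24.2%) passed and 99 had the same sign. The 97 shared calls were 29.3% of the 331 and 56.7% of the 171. The count rested on single libraries, since leaving out any one PP or LP library labelled knockout left 29 to 79 calls, and leaving out a control LP library 20 or 22. Median-of-ratios rescaling gave 125 higher and 33 lower. These libraries share the estimate of spread with the controls but no sample.

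The shared genes were mainly those that also had a level in the lower tissue. Where the lower tissue reached 2 RPKM in control, 57 of 100 higher genes and 27 of 70 lower genes passed the same way, and 98 and 66 had the same sign. Where it did not, 11 of 111 and 2 of 50 passed. For Il22 the libraries labelled knockout held 615 and 460.1 RPKM in PP and 4422 and 4047 in LP (log2 fold change 2.99, adjusted p = 0.00307). For Crem they held 24.1 and 25 and 686 and 1104 (5.09, adjusted p = 0.00243). Il17f passed with 112 and 73.1 and 1159.5 and 1572 RPKM (3.88, adjusted p = 0.02), against 9.19 and 2.92 in control PP. Areg, Ltb, Cd7, Atf3, Tnfaip3, Junb, Igha and Ramp3 passed the same way. Tnfsf11 (0.123), Rora (0.0608), Plaur (0.18) and Thy1 (0.293) had adjusted p above the threshold. Of the 18 immediate early genes higher in control LP, 11 also passed here.

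**Figure D5:**
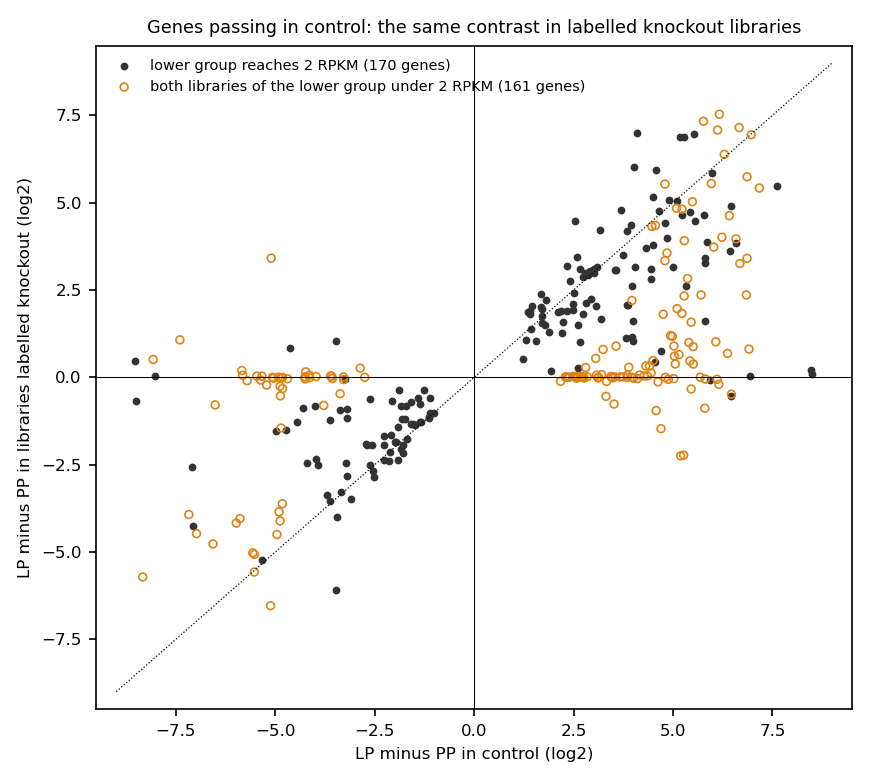
Log2 fold change, LP minus PP, in control (x axis) and in the libraries labelled knockout (y axis) for the 331 genes that passed in control. Filled points, 170 genes whose lower control tissue reached 2 RPKM, follow the dotted line of equal change, while many of the 161 open points, under 2 RPKM in both libraries of the lower control tissue, lie along 0 on the y axis.

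A test of the difference between genotypes was passed by 2 genes (0.0238%), 1 in each direction (0.0119% each), Ighv1-26 and Igkj4, both immunoglobulin segments, while 780 genes had an unadjusted p under 0.05 in the limma fit. None of the cytokines, transcription factors or receptors named above passed this test. The differences were -0.10 ± 0.324 for Il22, 1.98 ± 0.774 for Il17f, 1.84 ± 0.566 for Ramp3 and 1.75 ± 0.767 for Tnfsf11 (log2, SE), with adjusted p from 0.37 to 0.964. Such wide errors do not show that the effects are alike.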

How the data were processed

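RNA of sorted LTi cells was sequenced in 8 libraries, 2 per group. The authors deposited 1 table of log2(RPKM + 1) values. Reads were counted on mm10 with featureCounts of Subread, per the submitters' processing notes. The sources used here name no aligner settings or annotation. The table was converted back to RPKM, and genes with at least 1 RPKM in 2 of the 4 control libraries were kept. The value of 1 read gave relative depth (1 to 1.15), while total depth is unknown.

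Group means were fitted to log2(RPKM + 1), pseudocount 1, with limma 3.58.1 (R 4.3.3, eBayes with trend, 8 libraries, 4 residual degrees of freedom), and p-values were adjusted over 8419 genes by Benjamini-Hochberg. All 8 libraries share 1 estimate of spread. An exact permutation test of 2 against 2 cannot give a two-sided p below 0.333. The script was tested on simulated data with a spread per gene of at most 1 (log2), under the median SE of 1.19 here. That test therefore does not show how often false calls arise in these data.

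The members and the 34 gene lists were chosen with earlier results of these data known. The rule for named genes took, per direction, the 10 largest changes and the 5 most abundant genes among those that passed with at least 10 RPKM and no overlap, up to 4 per list with the smallest p, 3 immunoglobulin segments per direction, genes that passed the test between genotypes and a set always given. It left out predicted genes and other V, D and J segments. Any other gene was named after its values were seen. A few genes that the rule takes are not reported here. Alternatives covered pseudocount, filters, scaling, moderation, the libraries fitted and the replicate block. Promoter and miRNA sequences are from RefSeq (GRCm38.p6).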

Additional observations from a re-analysis of the deposited data

Results flagged for a closer look

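The tissue effect differed between genotypes for 2 immunoglobulin segments, by the limma interaction term. Ighv1-26, a heavy chain variable segment, stood at 1495 and 1889 RPKM in PP and 3014 and 3005 in LP of control, and at 9.24 and 11.6 RPKM in PP and 868 and 1410.5 in LP of the libraries labelled knockout. Its tissue effect in control minus that in the other genotype was -5.77 (log2, adjusted p = 0.0116), and the control libraries of both tissues lay above the PP libraries labelled knockout. Igkj4, a kappa light chain joining segment, stood at 4.05 and 5.92 RPKM in PP and 528 and 517 in LP of control, and at 214 and 264 and 173 and 154 RPKM in the other genotype, a difference of 7.01 (adjusted p = 0.0116). Both segments belong to antibody genes of B and plasma cells, whose part in these values was not tested. Neither call was kept without either control LP library or with the replicate block.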

How the results depend on the processing

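The 331 genes called in control kept their sign under each of the 21 other settings that tested them. Only the rescalings could have changed a sign. The control groups of these genes did not overlap, so no pseudocount and no library left out could turn it. The other settings left the difference itself unchanged. The count was 15 with only the 4 control libraries fitted, 28 with the replicate block, and 54 to 318 without 1 library, with 54 and 104 without control LP replicate 1 and 2, and 194 and 163 without the labelled knockout PP replicates. The 171 genes in the libraries labelled knockout became 96 without a trend, 26 with the replicate block, 263 (chosen after seeing the data) with a mean of at least 50 RPKM, and 20 to 196 without 1 library. The 2 genes of the test between genotypes became 4 at a pseudocount of 0.1, with a mean of at least 5 RPKM, without immunoglobulin and mitochondrial genes in the total, and with robust moderation. They became 12 at a pseudocount of 5, 36 without a filter, 7 without a trend, 11 with a mean of at least 50 RPKM, 0 with immunoglobulin and mitochondrial genes not tested or with the replicate block, and 0 to 7 without 1 library.

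PP and LP libraries share replicate numbers, but nothing in the labels says that a number marks a shared animal or day, so the replicate block (28 calls in control, all among the 331) is no paired result. Alternatives were followed for 113 genes (98 from the rule for named genes and 15 more), not for every gene that the text gives a value for. Of the 113, 97 were called. None of these changed sign, which only the rescalings could have brought about. Among the 16 others, Il7r turned to -0.31 and Kit to -0.05 and Fos to -0.30 under median-of-ratios rescaling. Over the fits without 1 library, Il7r ranged from -0.27 (without control PP replicate 2; -0.00 without control LP replicate 1) to 0.32, Tcf7 from -0.03 (without control PP replicate 2) to 1.47, and Fos from -0.09 (without control LP replicate 1; -0.03 without control PP replicate 2) to 0.17. The cause of these moves was not tested, beyond fewer libraries in the fits that leave some out. With 2 libraries a group and a median SE of 1.19, small differences were not detectable.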

Other observations

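Of 11 kept granule and cytotoxicity genes, 3 were higher in LP (27.3%, against 2.51% of all genes) and 1 lower (9.09%, against 1.43%) in the control contrast. Of the 11, 3 were kept through LP alone, Gzmc among them, so the filter fixed its direction. Gzmc, a granzyme gene, stood at 0.851 and 0.843 RPKM in PP and 88.8 and 111 in LP, Serpinb9, the inhibitor of granzyme B, at 11.7 and 24 RPKM in PP and 319.9 and 267 in LP, and Srgn, the proteoglycan core of granules, at 609 and 872 RPKM in PP and 1988 and 1847 in LP. Lamp1, of lysosomes, was the lower one, with 606 and 578 RPKM in PP and 136 and 128 in LP. Of 12 kept clock genes 2 were higher (16.7%, against 2.51% of all genes), Nfil3 and the repressor Bhlhe40, with 245 and 121 RPKM in PP and 1399.9 and 1116 in LP. Of 22 kept glycolysis and hypoxia genes, 1 was higher (4.55%, against 2.51% of all genes). This was Hk2, a hexokinase, with 5.98 and 12.4 RPKM in PP and 171 and 128 in LP, a call lost under 16 of 21 other settings. Of 15 cell cycle genes, 1 was lower (6.67%, against 1.43% of all genes). This was Rrm2, a subunit of the enzyme that makes deoxynucleotides, with 23 and 30.7 RPKM in PP and 0.0716 and 0.0586 in LP. It was kept through PP alone, so the filter fixed its direction. Without control LP replicate 1 none of the calls named here was kept (adjusted p from 0.0784 to 0.256).

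Several lists had no call in the limma fit. Notch pathway genes had a median log2 difference of -0.96 over 20 kept genes, 1 of them at an unadjusted p under 0.05. Interferon response genes had -0.60 over 25 (6 at that level), MHC class II and costimulation genes -0.46 over 12 (3), Wnt and TCF/LEF pathway genes 0.72 over 15 (5), survival and apoptosis genes 0.62 over 18 (5), AHR and retinoid sensing genes 1.01 over 13 (4), and ILC1 and NK cell markers 1.62 over 8 (5).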
